A study of Rattus norvegicus with 18 samples.

Results

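Potassium channel genes were taken as every gene on the array whose symbol begins with Kcn, either in the array's own annotation or in the current rat annotation of the probe's transcript. The rule found 88 genes on 108 probes, of 15388 genes with a rat symbol on the array, and each gene was represented by its probe of highest mean signal. Of these 88, 77 were well above background on all 3 arrays of at least 1 group and were tested, and 70 of the 77 were above background on all 18 arrays. The other 11 (Kcna7, Kcne3, Kcne4, Kcnh8, Kcnj1, Kcnj15, Kcnk18, Kcnmb1, Kcnq1, Kcnrg and Kcnv2) were too dim for a test. Kcne1 and Kcnj2 passed through the sham group at 2 h alone. Kcnk10 passed through 3 ischemic groups and neither sham group.

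The study asked how cerebral ischemia, with or without erythropoietin (EPO), alters gene expression in the rat brain cortex within hours. Total RNA of 18 cortex samples from male Crl:CD(SD)BR rats (an outbred strain) was hybridised to 1-colour oligonucleotide arrays. Ischemia was produced by occlusion of the middle cerebral artery (MCAO), the vessel that feeds most of the lateral hemisphere. Erythropoietin is best known for stimulating the making of red cells. There were 6 groups of 3 samples: sham-operated rats without treatment, rats with MCAO and saline, and rats with MCAO and EPO, each at 2 h and at 6 h. Age, EPO dose and the site of the cortical sample within or around the lesion are not given in the labels. Values are log2 processed signals after subtraction of each array's 75th percentile; changes are log2 differences ± SE from limma, and n = 3 arrays in every group. A gene is called where its adjusted p, over all 28625 probes tested, is below 0.05. Levels belong to a probe, so only changes of 1 gene are compared, not levels between genes.

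Potassium channels let potassium leave or enter the cell along its gradient, and thereby set the resting potential and end the action potential. Voltage-gated pores open on depolarisation, inward rectifiers and two-pore channels carry current near rest, calcium- and sodium-activated channels follow ion entry, and auxiliary subunits tune gating and surface delivery. In ischemic cortex, failure of the sodium-potassium pump lets potassium accumulate outside cells, and channels sensitive to ATP, acid or fatty acids are known to open.

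The arrays differed in quality in a way that cut across the groups. On 6 arrays the slope of log signal on spiked-in transcript amount was 0.914 to 0.941, and on the other 12 it was 0.788 to 0.866; probes above background made up 61.5% to 66.4% on the former (called steep here) and 68.6% to 80.6% on the latter. Sham at 2 h held 0 of them, saline at 6 h held 2 and each other group 1. All arrays of slide 5 were steep, and they were the only ones of scan day 2. Slope, slide and scan day cannot be told apart for these arrays. Neither sham nor saline at 2 h had an array on slide 5. All 10 neuron markers examined, of a tissue labelled as cortex, were above background on all arrays of every group. All 9 markers of striatal neurons were too, and markers of the choroid plexus varied widely between arrays. Because the samples are whole tissue, fewer cells of a type and less RNA per cell cannot be told apart in any value below. The labels do not say whether the 3 samples of a group came from separate animals, so p-values measure the spread between these samples, which may be technical.

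At 2 h after occlusion, 3 of the 77 genes rose in ischemic cortex with saline and 0 fell: Kcnv1, Kcna4 and Kcnj8. Over all 12418 genes tested, 1.28% were called higher and 0.346% lower. With EPO the same 3 genes rose and 0 fell, beside 1.44% of all genes higher and 0.362% lower; both comparisons use the same sham arrays. Each rise was between 1.45-fold and 1.68-fold.

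Kcnv1 encodes a silent voltage-gated subunit, which forms no channel alone but alters the gating of other voltage-gated pores. It read 2.03, 2.07 and 2.13 in sham rats at 2 h, 2.76, 2.66 and 2.76 with saline and 2.77, 2.74 and 2.61 with EPO. All 6 ischemic arrays were above all 3 sham arrays, and the saline and EPO arrays overlapped. The change was 0.65 ± 0.07 with saline (1.57-fold, limma adjusted p = 0.000125) and 0.63 ± 0.07 with EPO (1.55-fold, adjusted p = 0.000156). Kcna4, the pore of a fast-inactivating A-type channel found in axons, read -0.89, -0.80 and -0.85 in sham, -0.35, -0.41 and -0.15 with saline and -0.42, -0.19 and -0.20 with EPO. Again the ischemic arrays were all above the sham arrays, with changes of 0.54 ± 0.08 (adjusted p = 0.00343) and 0.57 ± 0.08 (adjusted p = 0.00241). Within slides 1, 2 and 4, which each held an array of both groups, Kcna4 differed by 0.54, 0.38 and 0.70 and Kcnv1 by 0.73, 0.60 and 0.63.

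Kcnj8 encodes an ATP-sensitive inward rectifier pore, known from vascular smooth muscle cells and pericytes, where its opening relaxes vessels. It read -0.36, -0.31 and -0.49 in sham at 2 h, 0.29, 0.38 and 0.42 with saline, and 0.28, 0.38 and 0.36 with EPO. The ischemic arrays lay apart from sham by 0.75 ± 0.08 (1.68-fold, limma adjusted p = 0.000237) with saline and by 0.72 ± 0.08 (1.65-fold, adjusted p = 0.000337) with EPO. Of 7 markers of mural cells 0 were called at 2 h, and their summed level ran from 3.23 to 3.42 in sham and from 3.26 to 3.32 with saline. The partner of this pore in vessels, the sulfonylurea receptor Abcc9, was at -0.30 ± 0.17 (adjusted p = 0.545).

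The calls at 2 h rested on the spread pooled over all 6 groups. In fits of only the groups compared, 0 of the 3 genes passed in either comparison, with adjusted p up to 0.256 for Kcna4 with saline. Without the 6 steep arrays Kcna4 missed the threshold in saline while Kcnv1 and Kcnj8 passed.

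The lower values of smallest p at 2 h did not pass. Kcnab2, a beta subunit that carries voltage-gated pores to the axon, was at -0.24 ± 0.06 with saline (limma adjusted p = 0.091) and -0.20 ± 0.06 with EPO (0.177). Kcnh3, an ether-a-go-go family pore of forebrain neurons, was at -0.25 ± 0.07 (0.129) and -0.18 ± 0.07 (0.328). Kcnab3, a related beta subunit, was at -0.35 ± 0.12 (0.23) with saline and Kcnj12, a strong inward rectifier, at -0.26 ± 0.09 (0.244) with EPO. Kcnab2 and Kcnh3 were lower on every ischemic array than on any sham array at 2 h, and both were called at 6 h.

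The sham groups themselves differed for the early genes. From 2 h to 6 h after sham surgery Kcnv1 rose by 0.51 ± 0.07 (limma adjusted p = 0.00482) and Kcna4 by 0.47 ± 0.08 (adjusted p = 0.0266), while 0.427% of all genes were called higher and 0.209% lower. Kcnj8 was at 0.39 ± 0.08 and missed the threshold (0.0604). Sham arrays at 6 h read 2.69, 2.53 and 2.53 for Kcnv1, -0.38, -0.39 and -0.37 for Kcna4, and 0.07, 0.10 and -0.15 for Kcnj8. For Kcnv1 and Kcna4 all 3 of these were nearer to the ischemic mean at 2 h than to the sham mean at 2 h. With any 1 of the 6 sham arrays left out, Kcna4 lost this call and Kcnv1 kept it. In fits with slide as a fixed block or of the sham groups alone, 0 genes were called. The smallest p among lower genes belonged to Kcnd1 at -0.29 ± 0.08 (0.195), Kcnb2 at -0.37 ± 0.12 (0.269) and Kcnj12 at -0.26 ± 0.09 (0.347).

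At 6 h Kcnv1 was lower in ischemia than in sham, and Kcna4 and Kcnj8 were not called. Kcnv1 fell below the sham level of that time, by 0.67 on the log2 scale with saline (SE 0.07, limma adjusted p = 3.65e-05) and by 0.44 with EPO (SE 0.07, adjusted p = 0.000596), with readings of 1.98, 1.81 and 1.96 and of 2.14, 2.11 and 2.18. Every ischemic array at 6 h was below every sham array of 6 h, and the saline arrays were also below the sham arrays of 2 h. Kcna4 read -0.51, -0.69 and -0.65 with saline, at -0.24 ± 0.08 from sham (0.0885), and -0.69, -0.51 and -0.57 with EPO, at -0.21 ± 0.08 (0.113). Kcnj8 read 0.14, 0.28 and 0.09 with saline, which overlaps sham (0.16 ± 0.08, 0.25), and 0.13, 0.33 and 0.31 with EPO (0.25 ± 0.08, 0.0585).

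Tested as an interaction, the change with saline at 6 h was smaller than that at 2 h for Kcnv1 by -1.32 ± 0.09 (limma adjusted p = 3.33e-05), for Kcna4 by -0.78 ± 0.12 (adjusted p = 0.00488) and for Kcnj8 by -0.58 ± 0.12 (adjusted p = 0.0265). These were the 3 members called lower in this test, beside 0.765% of all genes, and 0 were called higher, beside 1.17%. Both sham groups enter the interaction, so the shift between them is part of its size. Among positive values Kcnf1 was at 0.53 ± 0.14 (0.0993), Kcnj14 at 0.36 ± 0.14 (0.29) and Kcnk13 at 0.31 ± 0.12 (0.302). Without the steep arrays 0 of 3 passed. Neurod6, a transcription factor of cortical excitatory neurons named here after its values were seen, was at 0.64 ± 0.16 at 2 h (0.0782) and -0.81 ± 0.16 at 6 h (0.00554). In the interaction it was at -1.45 ± 0.23 (0.00587). It held the extreme value among 10 neuron markers, which had a median of -0.004 at 2 h (range -0.46 to 0.64). In the interaction their median was -0.18 (range -1.45 to 0.62), and Neurod6 alone was called. The part of Neurod6 in the Kcnv1 result was not tested.

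**Figure D1:**
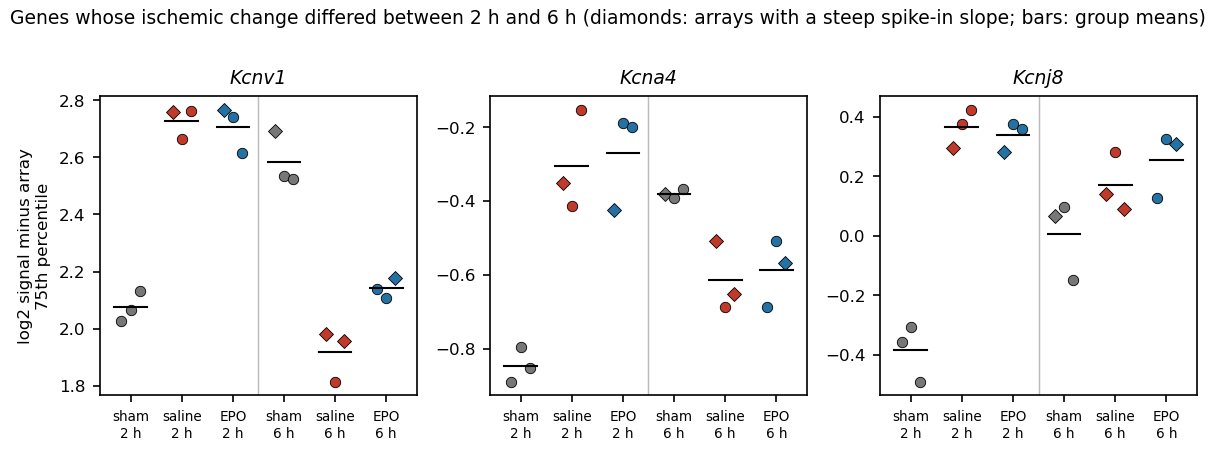
Signal of Kcnv1, Kcna4 and Kcnj8 on each array, as log2 signal minus the array's 75th percentile (y axis), for the 6 groups (x axis; grey sham, red saline, blue EPO; bars are group means, n = 3). The 3 sham arrays at 2 h are lowest for Kcna4 and Kcnj8 among all groups, the ischemic arrays at 2 h lie above them, and Kcnv1 lies lower in ischemia than in sham at 6 h.

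Sequences upstream of the genes that rose were read from RefSeq windows of the GRCr8 rat assembly, to show what the starts of genes that moved at the same time look like. The windows hold the 250 bases before a transcription start; 58 of the 88 members have at least 1 and Kcnv1 and Kcnk10 have none there. Short motifs were searched on both strands: the cAMP response element TGACGTCA, in 1.59% of all 33469 windows, the AP-1 site TGANTCA (6.34%), the TATA box TATAAA (12.9%), the GC box GGGCGG (30.5%) and the E-box CACGTG (5.59%). No 2 of these motifs overlap in the windows shown, and capitals mark a match. In the 64 windows of members the shares were 0, 3.12%, 3.12%, 48.4% and 3.12%, and the median GC content was 59.6% against 51.2% of all windows. The Kcna4 window lies at chr3:114215086-114215335 (plus strand), has 42.8% GC, and holds none of the 5 motifs. The Kcnj8 window lies at chr4:177246549-177246798 (minus strand), has 66.8% GC, and holds 1 GC box.
Kcna4: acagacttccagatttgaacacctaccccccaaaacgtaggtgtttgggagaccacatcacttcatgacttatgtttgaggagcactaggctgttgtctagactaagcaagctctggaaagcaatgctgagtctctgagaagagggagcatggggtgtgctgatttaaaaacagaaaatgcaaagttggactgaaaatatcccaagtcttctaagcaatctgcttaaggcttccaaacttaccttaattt
Kcnj8: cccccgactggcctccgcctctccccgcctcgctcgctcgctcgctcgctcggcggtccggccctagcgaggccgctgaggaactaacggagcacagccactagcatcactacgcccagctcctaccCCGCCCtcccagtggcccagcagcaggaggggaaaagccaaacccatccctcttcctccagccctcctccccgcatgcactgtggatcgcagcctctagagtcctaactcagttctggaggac

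At 6 h many more potassium channel genes were lower than higher. With saline 4 of the 77 rose (5.19%) and 16 fell (20.8%), beside 6.16% of all genes called higher and 6.8% lower. With EPO 7 rose (9.09%) and 17 fell (22.1%), beside 8.22% and 10.8%. The median change of the members was -0.16 with saline and -0.06 with EPO, against -0.09 and -0.01 over all genes. Both comparisons use the same 3 sham arrays, so the 4 rises and 14 falls they have in common are not separate evidence.

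Scaling shifts the balance at 6 h. With saline the median change of all probes was -0.13 under the 75th percentile, -0.03 after quantile normalisation and -0.08 in the authors' unscaled values, and the members' split of 4 higher and 16 lower became 5 and 14 after quantile normalisation, 4 and 6 in the unscaled values, and 5 and 7 with median centring. Kcnmb4, at -0.22 with saline, kept its call after quantile normalisation and lost it in the unscaled values and with median centring. The saline count of 20 became 1 (Kcnv1) without the 6 steep arrays, which leaves 1 saline array, assumed to vary like the other groups, and was 11 without sham replicate 2, 9 without sham replicate 3, and 11, 13 and 11 without saline replicates 1, 2 and 3. The EPO count of 24 was 14 without sham replicate 2 or 3, 12 without the steep arrays and 5 in a fit of the EPO and sham groups alone, where saline against sham gave 12. Within slides 3 and 5, which held arrays of both groups, 20 of 20 calls with saline and 24 of 24 with EPO had the sign of the fit, although those arrays are part of it. Slide 5 held only steep arrays, all of scan day 2. With slide as a fixed block the counts were 20 and 21.

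**Figure D2:**
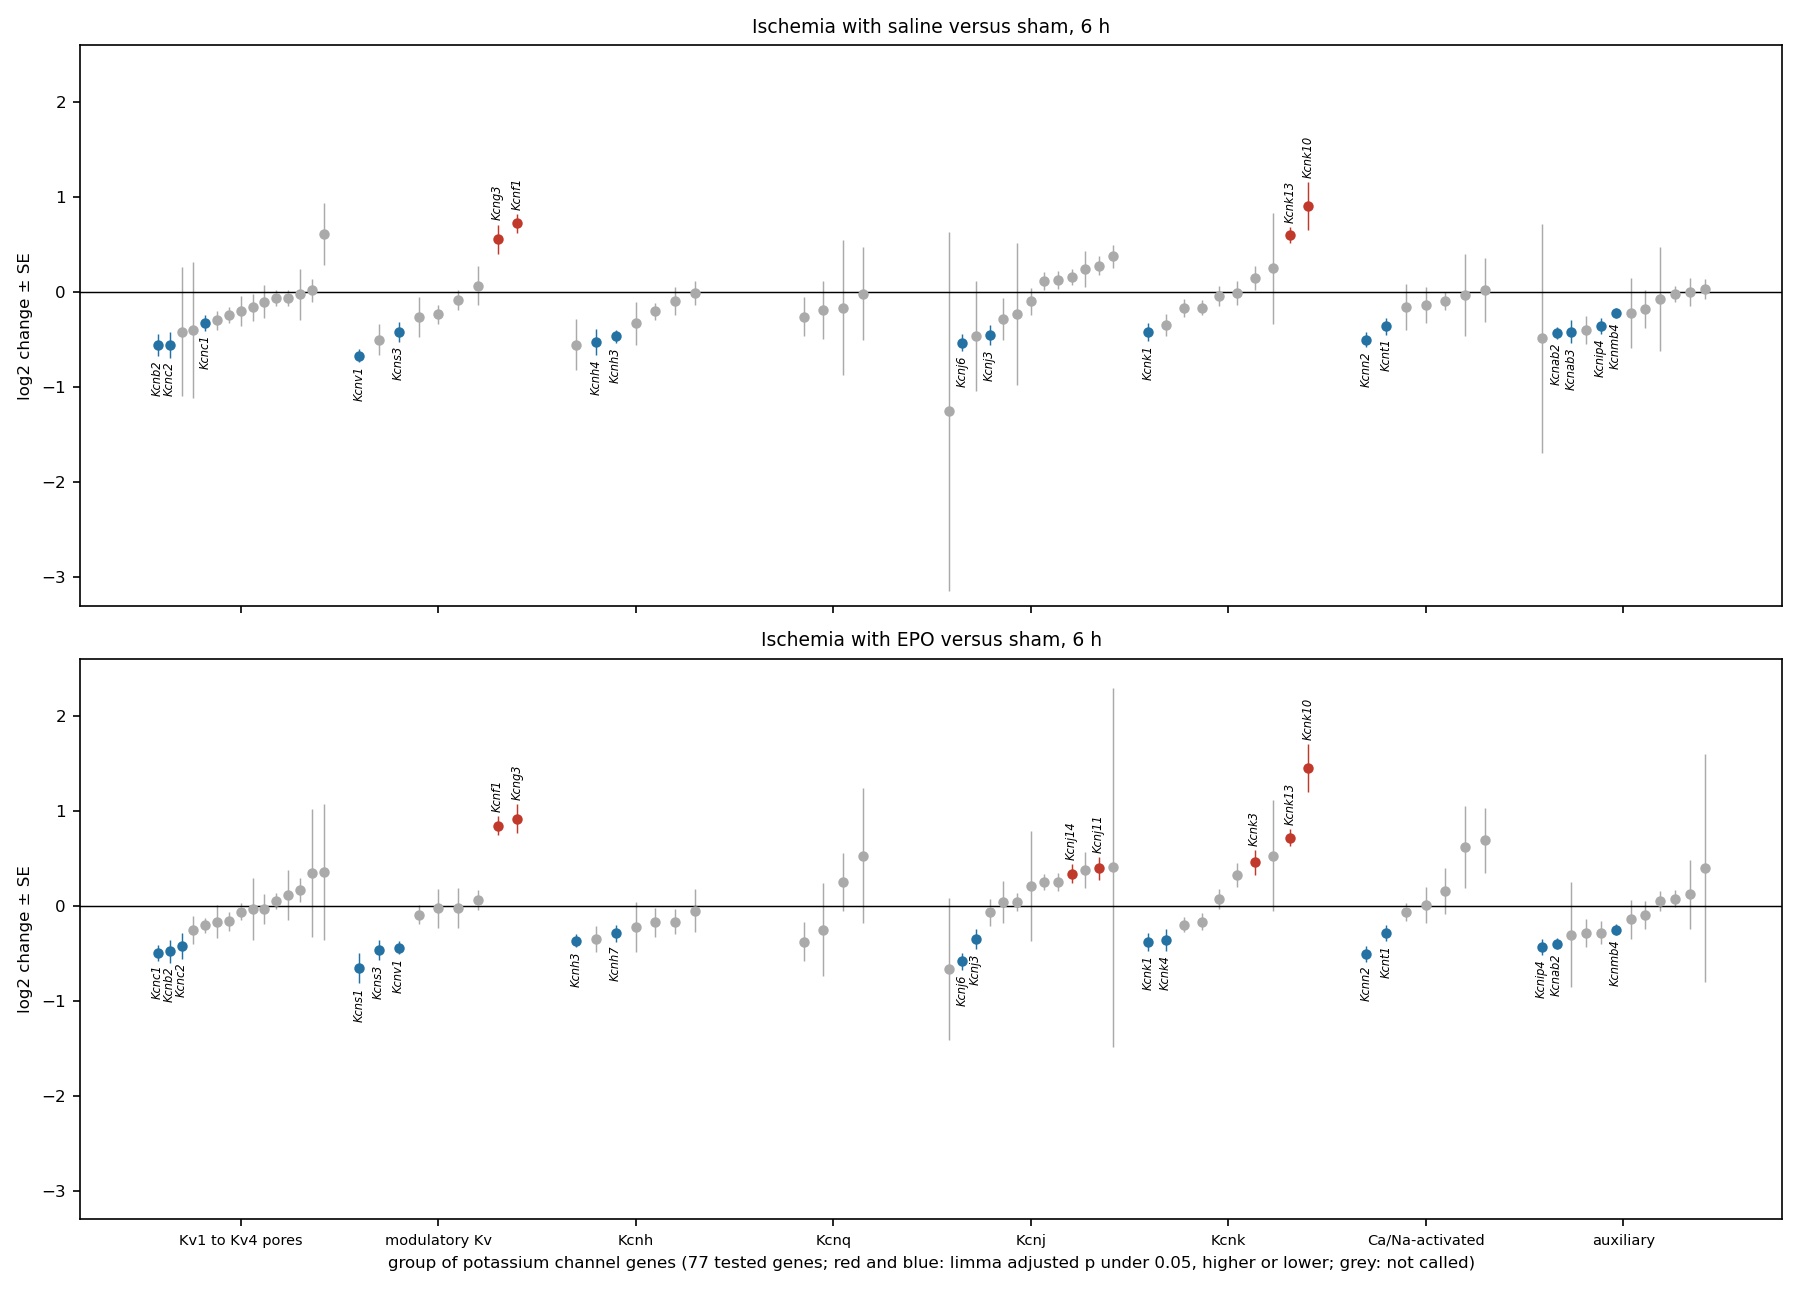
Log2 change ± SE at 6 h (y axis) of the 77 tested genes, by type of channel (x axis), for saline (top) and EPO (bottom) against the same sham arrays. Red and blue mark the 4 and 16 genes called higher and lower with saline and the 7 and 17 with EPO; most named points below 0 recur in both panels.

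Silent voltage-gated subunits moved in both directions at 6 h. Of 9 tested genes that modify other pores, 2 rose and 2 fell with saline, and 2 rose and 3 fell with EPO. Beside these and the counts by type below, 6.16% of all genes were called higher and 6.8% lower with saline at 6 h. With EPO the shares were 8.22% and 10.8%. In types of so few genes a count of 0 is near those shares. Kcnf1 read -2.18, -1.96 and -2.14 in sham, -1.46, -1.39 and -1.25 with saline and -1.23, -1.12 and -1.41 with EPO. All ischemic arrays were above all sham arrays of that time, by 0.73 ± 0.10 (1.66-fold, limma adjusted p = 0.00056) and 0.84 ± 0.10 (1.79-fold, adjusted p = 0.000112). Kcng3 read -1.74, -1.85 and -2.0 in sham, -1.39, -1.45 and -1.08 with saline and -0.90, -0.67 and -1.27 with EPO. It too was higher on all ischemic arrays, by 0.56 ± 0.16 (adjusted p = 0.0345) and 0.92 ± 0.16 (1.89-fold, adjusted p = 0.00139). At 2 h Kcnf1 was at 0.20 ± 0.10 and Kcng3 at 0.02 ± 0.16 with saline, and neither passed.

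Kcns3, another silent subunit, fell from 0.20, 0.09 and -0.03 in sham to -0.31, -0.35 and -0.33 with saline and -0.48, -0.44 and -0.23 with EPO. The groups did not overlap, and the changes were -0.42 ± 0.10 (limma adjusted p = 0.0216) and -0.47 ± 0.10 (adjusted p = 0.00766). Kcns1 fell with EPO, at -0.66 ± 0.16 (adjusted p = 0.0132), and was at -0.50 ± 0.16 with saline (0.0661). Kcnv1 is the other silent subunit that fell in both. Kcng1, Kcng2, Kcng4 and Kcns2 lay between -0.26 and 0.07 with saline and were not called.

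Two-pore channels carry the background potassium leak. Of 10 tested, 2 rose and 1 fell with saline, and 3 rose and 2 fell with EPO. Kcnk13, a two-pore channel that in brain is known from microglia, read 0.92, 1.03 and 1.02 in sham, 1.70, 1.42 and 1.66 with saline and 1.80, 1.75 and 1.57 with EPO. Ischemic and sham arrays lay apart, by 0.60 ± 0.09 (1.52-fold, limma adjusted p = 0.000697) and 0.72 ± 0.09 (1.64-fold, adjusted p = 0.000112). Of 10 microglia and macrophage markers 2 rose (Aif1 and Cd14) and 2 fell (P2ry12 and Tmem119) with saline. Their summed level was 5.05 to 5.24 in sham and 5.22 to 5.37 with saline, and its part in the Kcnk13 result was not tested. At 2 h Kcnk13 was already above all sham arrays, at 0.30 ± 0.09 with saline (0.143) and 0.24 ± 0.09 with EPO (0.251), short of a call.

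Kcnk10, a mechanosensitive and fatty acid-sensitive leak channel, was dim and above background on 12 of 18 arrays, among them 1 of 3 sham, 2 of 3 saline and 3 of 3 EPO arrays at 6 h. It read -5.18, -4.52 and -5.45 in sham, -4.49, -3.94 and -3.99 with saline and -3.37, -3.35 and -4.08 with EPO. The lowest saline array was only just above the highest sham array, at a change of 0.91 ± 0.25 (limma adjusted p = 0.0328), and EPO gave 1.45 ± 0.25 (adjusted p = 0.0016). The saline call held in 23 of 33 alternative analyses. Kcnk10 entered the test through the saline and EPO groups at 2 h and the EPO group at 6 h, and through neither sham group. Its rise over sham, above all with EPO at 6 h, was therefore favoured by the filter and is no separate support. Kcnk2, its close relative, was at -0.16 ± 0.08 with saline (0.23) and -0.20 ± 0.08 with EPO (0.104).

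Kcnk3, an acid-sensitive leak channel, rose with EPO from -3.67, -3.62 and -3.76 in sham to -3.00, -3.28 and -3.41, by 0.46 ± 0.13 (limma adjusted p = 0.0271). Saline arrays read -3.83, -3.57 and -3.69, on the sham level (-0.01 ± 0.13, 0.973). The EPO call was lost in 11 of 34 alternative analyses, for example after quantile normalisation. Kcnk1, a weakly rectifying leak channel of neurons and astrocytes, fell from 1.57, 1.76 and 1.71 to 1.31, 1.26 and 1.22 with saline and to 1.22, 1.44 and 1.21 with EPO. The 3 groups of values left a gap between sham and ischemia, at -0.41 ± 0.10 (adjusted p = 0.015) and -0.39 ± 0.10 (adjusted p = 0.0154). Kcnk4, a mechanosensitive channel of neurons, fell with EPO by 0.36 on the log2 scale (adjusted p = 0.0478; 13 of 34 alternative analyses) and was at -0.34 ± 0.11 with saline (0.0758).

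Of the 4 genes that rose with both treatments at 6 h, the 3 with an upstream window are shown for comparison with the early genes. The 3 genes that rose with EPO only are not shown. The 5 motifs and the meaning of capitals are as above. Kcnf1 lies at chr6:45693707-45693956 (minus strand, 59.6% GC) with none of the motifs. Kcng3 lies at chr6:16803592-16803841 (plus strand, 78.4% GC) with 2 GC boxes. Kcnk13 lies at chr6:124971559-124971808 (plus strand, 69.6% GC) with none. The windows shown share no motif of the 5 beyond the GC box of Kcnj8 and Kcng3, which says only that these letters are or are not there.
Kcnf1: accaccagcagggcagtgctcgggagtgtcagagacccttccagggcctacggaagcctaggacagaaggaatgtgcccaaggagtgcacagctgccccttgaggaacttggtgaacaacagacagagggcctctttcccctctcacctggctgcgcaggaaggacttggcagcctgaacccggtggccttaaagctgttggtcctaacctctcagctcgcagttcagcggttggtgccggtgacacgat
Kcng3: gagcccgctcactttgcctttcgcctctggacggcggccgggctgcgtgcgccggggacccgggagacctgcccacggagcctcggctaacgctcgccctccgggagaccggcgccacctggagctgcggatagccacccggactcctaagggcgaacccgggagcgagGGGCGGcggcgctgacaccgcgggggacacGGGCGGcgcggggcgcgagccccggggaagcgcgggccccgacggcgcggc
Kcnk13: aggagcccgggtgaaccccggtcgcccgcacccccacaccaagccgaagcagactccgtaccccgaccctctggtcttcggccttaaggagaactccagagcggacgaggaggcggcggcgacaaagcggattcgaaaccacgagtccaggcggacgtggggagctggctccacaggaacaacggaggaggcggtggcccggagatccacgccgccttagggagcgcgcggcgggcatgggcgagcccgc

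Of 15 tested pore-forming voltage-gated genes of the Kcna to Kcnd types, 3 fell and 0 rose at 6 h with either treatment. Over all genes 6.8% fell and 6.16% rose with saline, and 10.8% and 8.22% with EPO, so 0 rises is near the share. Kcnc1 and Kcnc2 encode fast delayed rectifiers that let interneurons fire at high rates. Kcnc1 read 0.97, 1.00 and 1.09 in sham, 0.68, 0.66 and 0.76 with saline and 0.34, 0.69 and 0.54 with EPO. Ischemic arrays were all below sham, by -0.32 ± 0.08 (limma adjusted p = 0.0266) and -0.50 ± 0.08 (adjusted p = 0.00136). Kcnc2 read -1.93, -1.79 and -1.75 in sham, -2.47, -2.22 and -2.43 with saline and -1.91, -2.32 and -2.50 with EPO. One EPO array lay within the sham range; the saline change was -0.55 ± 0.14 (adjusted p = 0.0192), and the EPO change of -0.42 ± 0.14 (adjusted p = 0.049) passed in 10 of 34 alternative analyses. Of 8 interneuron markers 0 fell with saline and 1 (Pvalb) with EPO, and Npy rose in both; their part in these falls was not tested.

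Kcnb2, a slow delayed rectifier, fell from -2.02, -1.75 and -1.75 in sham to -2.37, -2.25 and -2.57 with saline and -2.09, -2.35 and -2.53 with EPO. No ischemic array reached the sham range, and the changes were -0.55 ± 0.12 (limma adjusted p = 0.00925) and -0.48 ± 0.12 (adjusted p = 0.0136). With saline Kcna1, a low-threshold axonal pore, was at -0.29 ± 0.10 (0.0776) and Kcnd2, a somatodendritic A-type pore, at -0.10 ± 0.18 (0.762). A further, dimmer Kcna1 probe was at 0.01 with saline (0.976). The other members of this group were not called with either treatment.

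Of 7 tested ether-a-go-go, erg and elk genes, 2 fell and 0 rose with saline, and the same counts held with EPO. Kcnh3 was the clearest, with 2.05, 2.07 and 1.99 in sham, 1.48, 1.69 and 1.56 with saline and 1.76, 1.59 and 1.66 with EPO. All ischemic arrays were below sham, at -0.46 ± 0.07 (limma adjusted p = 0.00108) and -0.37 ± 0.07 (adjusted p = 0.00313). Kcnh4, a close relative, fell with saline (-0.53 ± 0.14, adjusted p = 0.0255) and was at -0.35 ± 0.14 with EPO (0.102). Kcnh7, an erg-type pore, fell with EPO (-0.29 ± 0.09, adjusted p = 0.0428), a call kept in 12 of 34 alternative analyses, and was at -0.20 ± 0.09 with saline (0.19). Kcnh1 was at -0.004 ± 0.13 with saline. The M-current genes, which hold neurons back from repetitive firing, had 0 of 4 tested members called: Kcnq3 was at -0.01 ± 0.49 and Kcnq5 at -0.26 ± 0.20 with saline.

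Of 13 inward rectifiers tested at 6 h, 2 fell and 0 rose with saline, while 2 fell and 2 rose with EPO. The falls were Kcnj3 and Kcnj6, which together form the G protein-gated channel through which many transmitter receptors silence neurons. Kcnj6 read 0.20, 0.28 and 0.25 in sham, -0.23, -0.31 and -0.32 with saline and -0.54, -0.29 and -0.21 with EPO. The groups lay well apart, at -0.53 ± 0.09 (limma adjusted p = 0.00251) and -0.59 ± 0.09 (adjusted p = 0.000768). Kcnj3 read 2.27, 2.40 and 2.34 in sham, 1.86, 1.84 and 1.97 with saline and 2.07, 1.91 and 1.98 with EPO, at -0.45 ± 0.11 (adjusted p = 0.0169) and -0.35 ± 0.11 (adjusted p = 0.0399). The array carries 3 further tested Kcnj3 probes. With saline they were at -0.90, -0.53 and -0.75, of which the last passed (limma adjusted p = 0.00577). In the same order they were at 0.06, -0.87 and -1.08 with EPO. The 0.06 did not pass (0.977), while the -0.87 and -1.08 did (limma adjusted p = 0.00339 and 0.000316). The first of these probes was above background on 15 of 18 arrays. Kcnj9, a further subunit of this channel, was at -0.09 ± 0.14 and Kcnj5 at -0.28 ± 0.22, and neither was called.

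Kcnj11, the pore of the neuronal ATP-sensitive channel, rose with EPO. It read 1.63, 1.35 and 1.30 in sham, 1.76, 1.79 and 1.86 with saline and 1.59, 1.91 and 1.95 with EPO. All saline arrays were above sham, yet saline missed the threshold at 0.38 ± 0.12 (0.0589), whereas EPO passed at 0.39 ± 0.12 (limma adjusted p = 0.0391) with 1 array inside the sham range. Abcc8, the sulfonylurea receptor that pairs with this pore, fell by 0.37 on the log2 scale with saline (adjusted p = 0.0227) and by 0.32 with EPO (adjusted p = 0.0319). Kcnj14, an inward rectifier, rose with EPO (0.34 ± 0.10, adjusted p = 0.0349) and was at 0.28 ± 0.10 with saline (0.0951). Kcnj4, a strong rectifier of the forebrain, was at 0.14 ± 0.10 with saline (0.446) and 0.25 ± 0.10 with EPO (0.0972).

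Calcium- and sodium-activated channels damp firing after ion entry, and 2 of 7 tested genes fell with each treatment. Kcnn2, a small-conductance calcium-activated pore, read -1.06, -0.96 and -0.98 in sham, -1.46, -1.51 and -1.53 with saline and -1.42, -1.49 and -1.62 with EPO. Ischemic arrays were all below sham, at -0.50 ± 0.08 (limma adjusted p = 0.00163) and -0.51 ± 0.08 (adjusted p = 0.000886). Sham at 2 h read -1.39, -1.35 and -1.17, so the fall set ischemic arrays below sham of 6 h but nearer to sham of 2 h; the shift between the sham groups was 0.30 ± 0.08 (0.151). Kcnt1, a sodium-activated channel, was at -0.36 ± 0.09 (adjusted p = 0.0177) and -0.29 ± 0.09 (adjusted p = 0.0365). Kcnma1, the large-conductance calcium-activated pore, was at -0.09 ± 0.09 with saline (0.63) and -0.06 ± 0.09 with EPO (0.818). A further, dimmer Kcnma1 probe was at -0.20 with saline (0.313) and at -0.34 with EPO, just short of a call (0.0523).

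Of 12 auxiliary subunits tested at 6 h, 4 fell with saline and 3 with EPO, and 0 rose. Over all genes 6.8% fell and 6.16% rose with saline, and 10.8% and 8.22% with EPO, so 0 rises is near the share. Kcnab2 read -0.98, -0.97 and -0.96 in sham, -1.44, -1.37 and -1.38 with saline and -1.41, -1.37 and -1.34 with EPO. The groups were far apart relative to their spread, and the changes were -0.42 ± 0.06 (limma adjusted p = 0.00072) and -0.40 ± 0.06 (adjusted p = 0.000728). Kcnip4, a calcium-binding partner of A-type pores, fell from 2.13, 2.02 and 2.07 to 1.78, 1.71 and 1.67 with saline and 1.52, 1.69 and 1.71 with EPO (adjusted p = 0.0174 and 0.00384). Kcnmb4, the neuronal beta subunit of the large-conductance channel, fell by 0.22 and 0.25 on the log2 scale (adjusted p = 0.0244 and 0.00749), with no overlap with sham. Kcnab3 fell with saline (-0.41 ± 0.12, adjusted p = 0.0456) in a call kept in 12 of 34 alternative analyses, and was at -0.29 ± 0.12 with EPO (0.143). Kcnip3, a calcium sensor that also acts as a transcriptional repressor, was at -0.01 ± 0.09 (0.931).

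**Figure D3:**
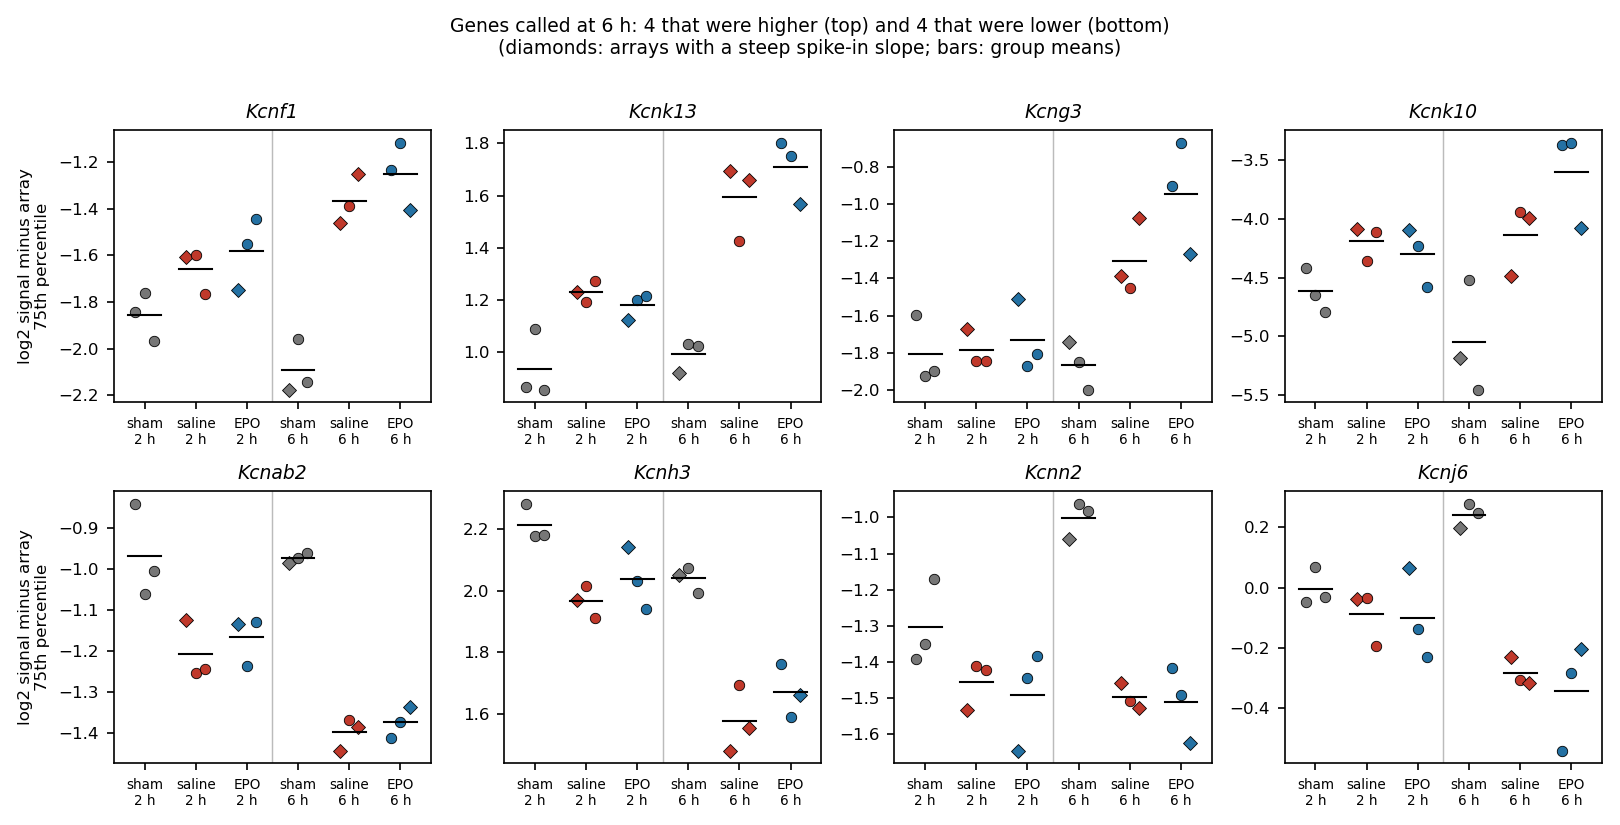
Signal on each array (log2 minus the array's 75th percentile, y axis; 6 groups of n = 3, x axis; bars are group means) of the 4 genes called higher at 6 h with both treatments (Kcnf1, Kcnk13, Kcng3, Kcnk10) and of 4 called lower (Kcnab2, Kcnh3, Kcnn2, Kcnj6). Ischemic arrays at 6 h lie on 1 side of the sham arrays of 6 h in all 8 panels, and Kcnn2 and Kcnj6 show higher sham values at 6 h than at 2 h.

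Markers of other cells moved at the same time. Of 10 neuron markers 3 fell with saline (Neurod6, Snap25 and Syt1) and 5 with EPO, with a summed level of 7.37 to 7.47 in sham, 7.24 to 7.25 with saline and 7.13 to 7.28 with EPO. Of 9 striatal neuron markers 2 rose with saline and 7 with EPO, from 4.35 to 4.75 in sham to 4.97 to 5.23 and 5.10 to 5.45. Endothelial markers fell in 5 of 10 with either treatment, and Kdr rose with EPO. Of 7 mural cell markers 3 fell with saline (Cspg4, Pdgfrb and Rgs5) and 2 with EPO (Cspg4 and Pdgfrb), and Des rose in both. Their summed level was 3.32 to 3.49 in sham, 3.06 to 3.09 with saline and 3.12 to 3.18 with EPO. The part of these lists in the channel genes' changes was not tested.

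Proteins that work with potassium channels, and other potassium transporters, were examined from lists of their own. Of 16 tested partners (anchors, receptors and kinases) 2 rose and 2 fell at 6 h with saline: Sgk1, a kinase that raises channel surface levels, at 0.51 ± 0.12 (limma adjusted p = 0.0131), Dlg2, a scaffold, at 0.35 ± 0.10 (adjusted p = 0.0388), Abcc8, and Dpp10, a partner of A-type pores, at -0.25 ± 0.07 (adjusted p = 0.0455). With EPO Dlg2 and Nedd4l rose, Abcc8 and Dpp10 fell, and Sgk1 was not called. Sgk1 was also called lower in sham from 2 h to 6 h. Its rise at 6 h is therefore measured against a sham group that had itself fallen. Slc12a5, the neuronal potassium-chloride cotransporter, was at -0.25 ± 0.08 with saline (0.0706). Of 3 tested hyperpolarisation-activated channels 0 were called.

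EPO against saline was asked directly in ischemic cortex at each time. Limma called 0 of the 77 genes at 2 h and 0 at 6 h, beside 0% of all 12418 genes in either direction. At an unadjusted p under 0.05 it gave 1 and 3 of the 77 members, beside 381 and 1184 of all 28625 probes. The members are thus near the share over all probes. Under any of the 16 other analyses, or with any array left out, 0 members were called. The member at 2 h was Kcnq5, an M-current pore, which read 1.20, 1.44 and 1.00 with saline and 2.04, 1.83 and 1.35 with EPO, overlapping groups (0.53 ± 0.20, unadjusted p = 0.0224, limma adjusted p = 1). Next on the higher side were Kcnip2 at 0.21 ± 0.15 and Kcnab1 at 0.13 ± 0.10, and on the lower side Kcnd3 was at -0.65 ± 0.32, Kcnj12 at -0.18 ± 0.09 and Kcns2 at -0.14 ± 0.11.

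At 6 h Kcnk3 was the member of smallest p, at 0.46 ± 0.13 (unadjusted p = 0.00298, limma adjusted p = 0.778), and its EPO arrays were all above its saline arrays. Kcnv1 was higher with EPO on all 3 arrays, by 0.22 ± 0.07 (unadjusted p = 0.00464, adjusted p = 0.778), so its fall read 0.67 with saline and 0.44 with EPO on the log2 scale. Kcng3 was at 0.36 ± 0.16, with overlap. On the lower side Kcnc1 was at -0.18 ± 0.08, Kcnd3 at -0.66 ± 0.32 and Kcnh1 at -0.16 ± 0.13. Of the 8 genes called with 1 treatment only at 6 h, 0 differed between treatments past the threshold, so a call with EPO alone does not show an effect of EPO.

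Some channel genes followed the spike-in slope of the array, at about the rate seen over all genes. In 10 of the 77 genes (13%) all 6 steep arrays were below all 12 others, beside 12% of all genes, and in 0 of 77 they were all above, beside 0.0644%. Among the 10 were Kcna2, Kcna10, Kcne1, Kcnj2, Kcnj10, Kcnk15, Kcnmb2, Kcnmb3 and Kcnn1, and 0 of the 10 were among the 28 genes called in any comparison. Every group but sham at 2 h mixed steep and other arrays, which widens the spread of such genes within groups. That 0 is therefore close to fixed in advance and does not show that the called genes are free of the slope. Kcnj2, an inward rectifier of vessels and neurons, read -7.65 to -5.82 on the steep arrays and -3.22 to -1.11 on the others. Kcnj10, the astrocyte channel that clears extracellular potassium, read -4.14 to -3.60 against -3.03 to -1.63, and Kcna2, an axonal pore, -4.11 to -3.62 against -2.77 to -1.14. Their changes with saline at 6 h were -1.25 ± 1.89, -0.46 ± 0.58 and -0.40 ± 0.71, with errors too wide to show a change of the size seen in the called genes.

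**Figure D4:**
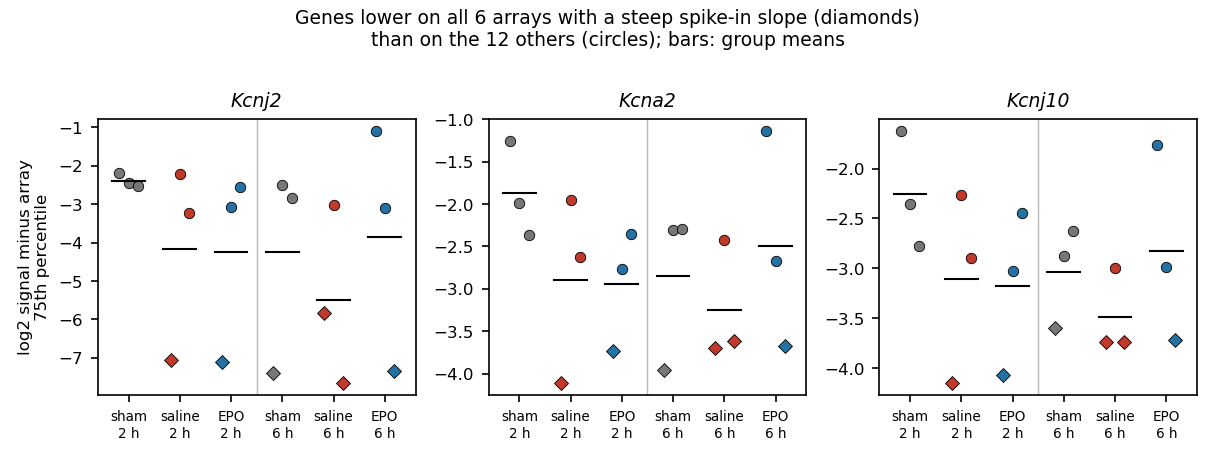
Signal of Kcnj2, Kcna2 and Kcnj10 on each array (log2 minus the array's 75th percentile, y axis; 6 groups of n = 3, x axis; bars are group means). Diamonds are the 6 arrays with a steep spike-in slope, which lie below the 12 other arrays in all 3 panels whatever the group.

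Kcnj13 and Kcne2, which are abundant in the epithelium of the choroid plexus, varied widely within groups, and neither was called in any comparison. Kcnj13 ran from -3.40 to -0.70 among saline arrays at 6 h and from -1.94 to -0.24 among sham arrays at 2 h, and its change with saline was -0.23 ± 0.75 at 6 h. The summed level of 5 choroid plexus markers ran from -1.73 on 1 sham array at 6 h to 5.40 on 1 sham array at 2 h, and Ttr, the main secreted protein of that tissue, from -2.94 to 5.15. The part of choroid plexus in the Kcnj13 values was not tested.

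In all, 28 of the 77 tested genes were called in at least 1 comparison and 49 in none.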

How the data were processed

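RNA of 18 rat cortex samples was measured on 1-colour 60-mer arrays. The intensity used is the processed signal in the authors' deposited scanner output (Agilent Feature Extraction, version 9.1.1.1, per the submitters' processing notes). Log2 values in the authors' deposited matrix were also read and equal log2 processed signal averaged over a probe's spots without scaling between arrays (largest difference 5.3e-14).

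For the present values, spots of a probe that were not marked as outliers were averaged on the log2 scale, and the 75th percentile over the array's 43379 non-control spots was subtracted. Probes above background on all 3 arrays of at least 1 group were tested (28625). Probes were named by accession (86 member probes) or symbol (22). A model of 6 group means over 18 arrays with 12 residual degrees of freedom was fitted in limma 3.58.1 (R 4.3.3, statmod 1.5.0), using its moderated test, two-sided, with p adjusted by Benjamini-Hochberg at 0.05. The median SE of a log2 change was 0.13 for the members; precision is limited by the number of arrays. The fit was also tested on simulated data. Promoter windows and plots were made with Python 3.11.15 (pandas 2.3.3, matplotlib 3.10.9).

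The members, gene lists and tests were chosen with earlier results of these data known. Genes named with values are, per comparison, up to 12 rises and 12 falls past the threshold, the 3 of smallest p in a direction with fewer than 3, 20 channel genes listed for naming whatever their values, and up to 3 of each partner list; others are named with their group. Some genes under this rule are not reported here. The labels do not say what shared replicate numbers mean. Deviations of same-numbered samples correlated above 0.1 in each of the 3 pairs for 1 contrast, EPO versus saline at 2 h (0.887, 0.654 and 0.635), where a replicate block also called 0 members. Alternatives were 16 settings and leaving out each of 18 arrays.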

Additional observations from a re-analysis of the deposited data

Results flagged for a closer look

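The change with saline differed between 2 h and 6 h by a direct test for 3 genes. The 6 h change minus the 2 h change was -1.32 for Kcnv1 (limma adjusted p = 3.33e-05), -0.78 for Kcna4 (0.00488) and -0.58 for Kcnj8 (0.0265), all on the log2 scale. Kcnv1 was higher on 3 of 3 saline arrays at 2 h than on any sham array and lower on 3 of 3 at 6 h. Both sham groups enter these differences. From 2 h to 6 h sham itself moved by 0.51 for Kcnv1, 0.47 for Kcna4 and 0.39 for Kcnj8. The values are thus not a change in ischemic tissue alone. The interaction held for Kcnv1 in 33 of 34 alternative analyses, for Kcna4 in 32 and for Kcnj8 in 20. Groups of 3 arrays are too small for a search for single outlying samples.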

How the results depend on the processing

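Of 55 calls of single genes over the 8 comparisons, 5 held under every alternative run (Kcnv1 with saline and with EPO at 6 h, and Kcnf1, Kcnk13 and Kcnab2 with EPO at 6 h), and 0 reversed sign. Counts of called members at 6 h with saline (20) and EPO (24) were 10 and 13 in the authors' unscaled values, 12 and 5 in fits of only the groups compared, and 1 and 12 without the steep arrays. Median centring, chosen after seeing the data, gave 12 with saline. At 2 h the 3 calls with saline and the 3 with EPO became 0 and 0 in fits of only the groups compared. The 2 calls between shams became 0 in the unscaled values, 0 in the fit of both sham groups alone, 0 with slide as a fixed block and 0 without the steep arrays; they became 1 with no filter on dim probes, 1 with the replicate block, 1 with the spike-in slope as covariate and 1 with median centring. The 3 interactions became 0 without the steep arrays. Leaving out 1 array in turn gave 9 to 22 calls at 6 h with saline, 14 to 23 with EPO, 1 to 2 between shams, 2 to 4 interactions, 3 to 3 at 2 h with either treatment and 0 to 0 for EPO against saline. With the replicate block the counts were 19 and 23 at 6 h, 3 and 3 at 2 h, 3 interactions and 0 for EPO against saline. The causes were not tested. With 3 arrays a group, and probes such as Kcnk10 near background, changes well above the printed errors could miss the threshold. Kcnj11 with saline at 6 h did so (0.38, limma adjusted p = 0.0589). A gene that was not called is therefore not shown to be unchanged.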
